A study of Mus musculus with 3 samples.

Results

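The sites described here are MYC-bound regions that lie between, or at the shared end of, neighbouring genes in Pan02 cells, a mouse pancreatic ductal adenocarcinoma line. They were chosen by the deposited peak calls: each is a MYC peak of POH1-Flag cells on chromosomes 1 to 19 or X that overlaps a MYC peak of vector cells by at least 1 bp and overlaps no Flag peak. Its summit, the position of highest read pileup, lies within 1 kb of an end of at least 2 different RefSeq protein-coding genes (GRCm38). This gave 1019 of the 22647 MYC peaks of POH1-Flag cells, or 11.1% of the 9190 shared MYC sites without a Flag peak. Of the other shared sites, 4184 had a summit within 1 kb of an end of 1 gene and 3987 lay farther from any gene end. The 1019 sites touched 1993 genes. At 993 sites the summit was near 2 genes and at 26 sites it was near 3.

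The study profiled binding with CUT&Tag, in which a transposase tethered to an antibody cuts and tags the DNA around the bound protein. It holds 3 libraries: Flag in cells that stably express POH1-Flag, MYC in the same POH1-Flag line, and MYC in cells with vector. POH1, the product of Psmd14, removes ubiquitin chains from substrates at the lid of the proteasome. Each group has 1 library and the labels name no replicate culture, so no difference between the cell lines has a replicate check and no p-value is given for one. The deposited lists hold 2936 Flag peaks, 22647 MYC peaks in POH1-Flag cells and 12175 MYC peaks in vector cells. Solved from the deposited values, the median pileup at a peak was 15 reads for Flag, 15 reads for MYC in POH1-Flag cells and 14 reads for MYC in vector cells. The lowest background under any peak of a MYC list was 0.826 reads in POH1-Flag cells and 0.845 reads in vector cells. Single peaks can stand on a higher background. The level of POH1 and the identity of the cells were not analysed here, since the lists hold binding and no expression.

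MYC is a transcription factor that pairs with MAX and binds the E-box CACGTG, and less tightly variants such as CACGCG; in growing cells it is found at many active promoters, including those of genes for ribosomes, nucleotide synthesis and mitochondria. A bidirectional promoter is a stretch of DNA between 2 genes that start close together and are read in opposite directions. Such promoters are often CpG-rich, lack a TATA box, and serve housekeeping genes, among them DNA repair, chaperone and mitochondrial genes. ETS-family factors, which bind CCGGAA, are textbook regulators of many of them.

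The promoters below belong to 8 of the pairs that the results turn on: 5 textbook bidirectional pairs (Hspd1, Paics, Ranbp1, Atm and Surf2), 2 pairs with ratios among the highest (Lonp1 and Dnajb11) and the mitochondrial pair of Mrpl47. Each is the RefSeq window of 250 bases before to 50 after the gene's start (GRCm38.p6), printed 5′ to 3′ on the gene's own strand. Capitals mark the E-box CACGTG, its variant (spelled CACGCG on one strand and CGCGTG when the window shows the other) and an ETS word (spelled CCGGAAG on one strand and CTTCCGG when the window shows the other). Positions give a word's first base, with the start at 1 and the base before it at -1.
Hspd1: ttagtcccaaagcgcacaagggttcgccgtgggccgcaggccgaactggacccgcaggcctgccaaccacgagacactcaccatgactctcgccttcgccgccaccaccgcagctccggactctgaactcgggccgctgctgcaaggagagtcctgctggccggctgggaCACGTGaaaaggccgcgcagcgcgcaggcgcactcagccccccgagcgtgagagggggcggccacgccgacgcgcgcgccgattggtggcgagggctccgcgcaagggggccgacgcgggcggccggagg
Paics: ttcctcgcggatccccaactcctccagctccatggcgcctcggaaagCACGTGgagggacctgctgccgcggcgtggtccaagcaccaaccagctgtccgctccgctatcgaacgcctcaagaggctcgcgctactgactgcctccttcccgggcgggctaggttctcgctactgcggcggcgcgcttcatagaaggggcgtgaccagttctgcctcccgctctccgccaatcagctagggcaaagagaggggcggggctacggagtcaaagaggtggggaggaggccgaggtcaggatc
Ranbp1: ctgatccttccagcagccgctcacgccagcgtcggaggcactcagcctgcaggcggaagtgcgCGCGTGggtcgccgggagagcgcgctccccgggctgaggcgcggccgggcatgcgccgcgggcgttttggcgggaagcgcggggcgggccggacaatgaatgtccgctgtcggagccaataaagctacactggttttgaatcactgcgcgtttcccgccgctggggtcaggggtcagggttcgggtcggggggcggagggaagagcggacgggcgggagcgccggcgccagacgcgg
Atm: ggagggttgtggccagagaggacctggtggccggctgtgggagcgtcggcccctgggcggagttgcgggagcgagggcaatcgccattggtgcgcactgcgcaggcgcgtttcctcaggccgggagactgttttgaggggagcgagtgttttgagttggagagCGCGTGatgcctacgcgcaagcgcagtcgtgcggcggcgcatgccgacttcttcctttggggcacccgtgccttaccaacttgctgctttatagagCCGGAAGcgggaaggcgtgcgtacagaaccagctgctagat
Surf2: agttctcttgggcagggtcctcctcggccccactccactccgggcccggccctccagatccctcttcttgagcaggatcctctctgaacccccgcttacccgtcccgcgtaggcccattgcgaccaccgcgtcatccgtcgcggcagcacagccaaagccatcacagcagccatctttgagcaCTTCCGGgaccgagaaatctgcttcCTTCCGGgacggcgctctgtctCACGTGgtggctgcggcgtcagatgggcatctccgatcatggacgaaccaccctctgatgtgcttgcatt
Lonp1: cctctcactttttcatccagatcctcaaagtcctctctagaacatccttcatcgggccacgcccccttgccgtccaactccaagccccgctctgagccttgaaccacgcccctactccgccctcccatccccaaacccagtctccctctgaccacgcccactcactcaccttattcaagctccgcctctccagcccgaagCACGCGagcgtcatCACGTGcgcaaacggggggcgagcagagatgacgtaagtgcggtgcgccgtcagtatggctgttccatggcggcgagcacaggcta
Dnajb11: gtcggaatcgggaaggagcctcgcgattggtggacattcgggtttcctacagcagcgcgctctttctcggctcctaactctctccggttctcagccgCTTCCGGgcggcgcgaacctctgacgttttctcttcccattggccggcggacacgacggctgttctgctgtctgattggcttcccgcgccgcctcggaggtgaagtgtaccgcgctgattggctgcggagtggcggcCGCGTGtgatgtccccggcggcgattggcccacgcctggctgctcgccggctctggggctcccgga
Mrpl47: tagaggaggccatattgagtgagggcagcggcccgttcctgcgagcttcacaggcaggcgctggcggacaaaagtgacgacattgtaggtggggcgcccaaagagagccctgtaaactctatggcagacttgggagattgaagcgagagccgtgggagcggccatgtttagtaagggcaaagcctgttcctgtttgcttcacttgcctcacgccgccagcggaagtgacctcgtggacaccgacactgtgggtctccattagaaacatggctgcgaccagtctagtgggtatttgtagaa

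The windows of Hspd1 (chr1:55088194-55088493, minus strand) and Paics (chr5:76951052-76951351, plus strand) each hold 1 E-box, at -80 and at -203. In Ranbp1 (chr16:18248645-18248944, minus strand) the marked word is the E-box variant at -187, and in Atm (chr9:53536622-53536921, minus strand) a variant at -87 is followed by an ETS word at 10. Surf2 (chr2:26916158-26916457, plus strand) carries 2 ETS words at -67 and -42 and an E-box at -20. Lonp1 (chr17:56626854-56627153, minus strand) has a variant at -50 and an E-box at -36, whereas Dnajb11 (chr16:22857595-22857894, plus strand) has an ETS word at -153 and a variant at -16. Mrpl47 (chr3:32736706-32737005, minus strand) holds none of the 3 words. The MYC summit of POH1-Flag cells lay inside the printed window for Ranbp1, Atm, Lonp1, Dnajb11 and Mrpl47, and 147, 214 and 149 bp past the start for Hspd1, Paics and Surf2, beyond its end. A word is a match of letters and not a measured binding site.

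The neighbouring genes at these sites mostly started back to back. The strand was known for 17274 of 21631 protein-coding genes, which gave an orientation for the 2 nearest genes at 782 of the 1019 sites. At 605 of the 782 (77.4%, Wilson 95% interval 74.3 to 80.2) the genes diverged from adjacent starts. At 139 sites (17.8%) the genes ran in tandem, with the start of one near the end of the other, and at 20 sites 2 starts lay on the same strand. Convergent ends, where 2 genes meet tail to tail, accounted for 5 sites. In all, 776 of the 782 sites had at least 1 gene start among the 2 nearest genes.

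Read the other way, from the genes, divergent pairs carried a site more often than tandem or convergent pairs. Of all 4810 pairs of protein-coding genes with ends within 2 kb of each other, 1050 (21.8%) had such a site near both ends. The share was 614 of 1005 divergent pairs (61.1%, Wilson 95% interval 58.0 to 64.1), 145 of 902 tandem pairs (16.1%) and 11 of 1049 convergent pairs (1.05%, interval 0.587 to 1.87). Pairs with both starts on the same strand, of which there were 43, had a site in 22 cases (51.2%, interval 36.8 to 65.4), a range that overlaps that of divergent pairs. Among pairs of unknown orientation it was 243 of 1681 (14.5%). For comparison, 3078 of 13854 gene starts with no other gene end within 2 kb (22.2%, interval 21.5 to 22.9) had a shared MYC site within 1 kb. The intervals cover counting error only, and neighbouring pairs are not replicates of a condition.

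Counting any MYC peak near both ends, divergent pairs were reached in 789 of 1005 cases (78.5%) in POH1-Flag cells and in 622 (61.9%) in vector cells. A peak in POH1-Flag cells without one in vector cells was found at 178 divergent pairs, and the opposite at 11. Over all 4810 pairs, 1426 (29.6%) were reached in POH1-Flag cells and 1068 (22.2%) in vector cells. There a peak in POH1-Flag cells alone was found at 387 pairs and the opposite at 29, so the lean is not particular to divergent pairs. At 205 divergent pairs no MYC peak of either line lay near an end of each gene. The POH1-Flag list is the longer of the 2 lists over the whole genome, so the difference is that of list length as well. Flag peaks lay near both ends of 0 of the 1005 divergent pairs and of 1 of the 4810 pairs in all.

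The distance between the starts of a divergent pair went with how often a site was present. With the starts over 100 and up to 200 bp apart, 100 of 132 pairs had a site (75.8%), and with over 300 and up to 500 bp between them, 43 of 55 (78.2%). Pairs whose starts were 0 to 100 bp apart had one in 202 of 290 cases (69.7%). Where the genes overlapped by up to 500 bp, 153 of 237 pairs had a site (64.6%), and where they overlapped by more than that, up to 2000 bp, 47 of 121 (38.8%). Beyond 500 bp apart, the share was 47.6% up to 1000 bp and 3.13% from 1000 to 2000 bp. The rule of 1 kb from both ends itself leaves less room for a summit the farther apart the starts lie, also where the genes overlap. It thus limits the wide overlaps and the wide distances most, and its part in these shares was not tested.

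**Figure D1:**
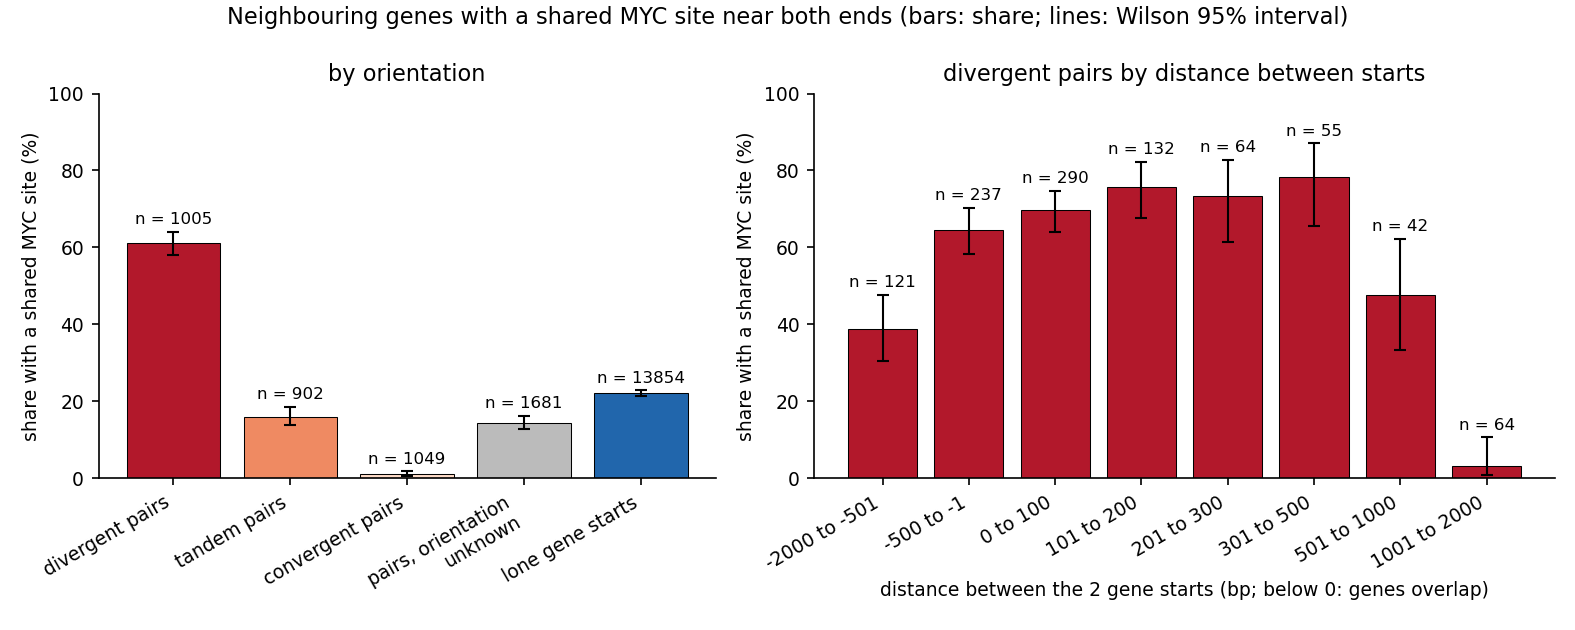
Share of gene pairs with a shared MYC site near any end of each gene (%, bars) with Wilson 95% intervals (lines), on the left by orientation beside gene starts with no neighbour, on the right for divergent pairs by the distance between the starts in bp. Divergent pairs stand at 61.1% against 16.1% for tandem and 1.05% for convergent pairs, and the share lies between 64.6% and 78.2% from an overlap of 500 bp to a distance of 500 bp.

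At the 605 divergent sites the starts lay close together. Their distance had a median of 47 bp (quartiles -94 and 149, negative where the genes overlap), 459 pairs (75.9%) started within 300 bp of each other, and 203 (33.6%) overlapped. The summit in POH1-Flag cells was a median of 96 bp (quartiles 51 and 155) from the nearer start and 197 bp (133 and 373) from the farther one. At shared sites near the start of 1 gene it was 136 bp (75 and 230) from that start. Taking the nearer of 2 starts shortens the distance by itself. The vector summit lay at a median of 106 bp from the nearer start.

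The summit fell inside a gene at most sites, in part because the 203 overlapping pairs have no space between their starts and the others little. At 286 of the 605 sites (47.3%) it lay past the nearer start, inside that gene only, at 111 (18.3%) inside the farther gene only, and at 93 (15.4%) inside both overlapping genes. At 115 sites (19%) it lay between the starts, which is 28.6% of the 402 sites whose starts were apart. Sites near a single gene start had summits on both sides of it, with a median of 38 bp into the gene (quartiles -120 and 153). Tandem sites favoured the start: in 118 of 139 (84.9%) the summit was nearer to the start of one gene than to the end of the other, with median distances of 133 and 470 bp.

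**Figure D2:**
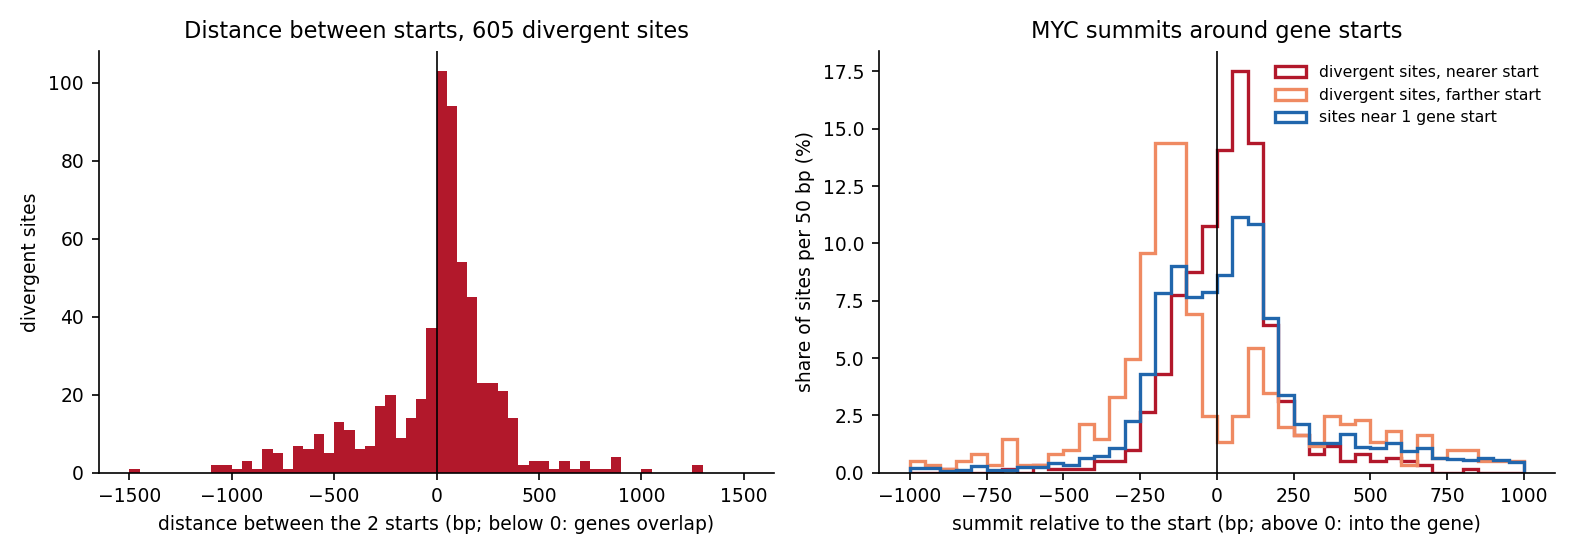
Left, number of divergent sites by the distance between the 2 starts (bp, negative where genes overlap, bins of 50 bp). Right, share of sites per 50 bp by the place of the MYC summit in POH1-Flag cells relative to a start (bp, positive into the gene), for the nearer and the farther start of divergent sites and for sites near 1 gene start: the nearer-start line peaks just inside the gene and the farther-start line just before it. Where the starts are apart, a summit past 1 start lies before the other by geometry, so these 2 lines are not independent.

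The MYC pileup at the sites was mostly higher in POH1-Flag cells. Over the 1019 sites the summit pileup had a median of 27 reads (quartiles 21 and 35, range 9 to 83) in POH1-Flag cells and 16 reads (quartiles 12 and 22, range 7 to 58) in vector cells. After scaling by the background, the ratio of POH1-Flag over vector had a median of 1.66 (quartiles 1.45 and 1.92), a log2 ratio of 0.73. It was above 1 at 1006 sites (98.7%), against 94.6% of all 9190 shared sites, and at least 1.5 at 697 (68.4%), against 58.4% of all shared sites. At least a ratio of 2 was reached at 200 sites (19.6%), close to the 17.6% of all shared sites. The exact 95% counting interval of the ratio lay above 1 at 283 sites (27.8%, against 21.6% of all) and below 1 at 0. With pileups scaled by depth instead, it lay above 1 at 166 sites (16.3%). The share of all shared sites was not worked out under that scaling, so 16.3% cannot be set against 21.6%. Depth here and below is an estimate from the peak lists, the lowest background over the smallest peak width, and not a count of reads. Since the rule required a peak in both MYC lists, these values are a description and not a test of the cell lines.

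Sites between neighbouring genes differed little in ratio from other promoters and somewhat more from sites away from genes. The median log2 ratio was 0.73 (quartiles 0.53 and 0.94), against 0.71 (0.47 and 0.93) at sites near 1 gene end and 0.59 (0.31 and 0.86) at sites away from gene ends. The quartile range lay close to that near 1 gene end and overlapped in part with that away from gene ends. The sums of reads, 29439 in POH1-Flag cells and 18318 in vector cells, gave a scaled ratio of 1.64, against 1.62 near 1 gene end and 1.51 away from gene ends. The sites were also a little stronger, with 27 reads in POH1-Flag cells, against 24 near 1 gene end and 22 away from gene ends. In vector cells the medians were 16, 15 and 14 reads in the same order.

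Orientation and place of the summit moved the ratio little. The median log2 ratio was 0.73 at divergent and 0.69 at tandem sites. It was 0.33 over the 5 convergent sites, too few to read. Those lie between Zbtb7b and Dcst2, Shf and Duox1, Ppfia3 and Hrc, Tuba4a and Stk16, and Hcfc1r1 and Tnfrsf12a, and had 20 to 27 reads in POH1-Flag cells against 13 to 22 in vector cells. Every one of their counting intervals held 1.

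The ratio was lower where vector cells already had a high pileup. With the sites split into 4 groups of like number by vector pileup, whose medians were 10, 14, 19 and 26 reads, the ratio had medians of 1.84, 1.73, 1.61 and 1.5, and the pileup in POH1-Flag cells had medians of 18, 25, 30 and 41 reads. The vector pileup enters both the grouping and the ratio, and what counting error adds to this order was not tested. Peaks were 724 bp wide at the median in POH1-Flag cells and 520 bp in vector cells, and a peak width depends on depth and threshold in each list. The 2 summits of a site lay a median of 71 bp apart (quartiles 29.5 and 153), within 100 bp at 623 sites (61.1%). Each pileup is that at its own library's summit, so at the other sites a ratio compares positions more than 100 bp apart.

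**Figure D3:**
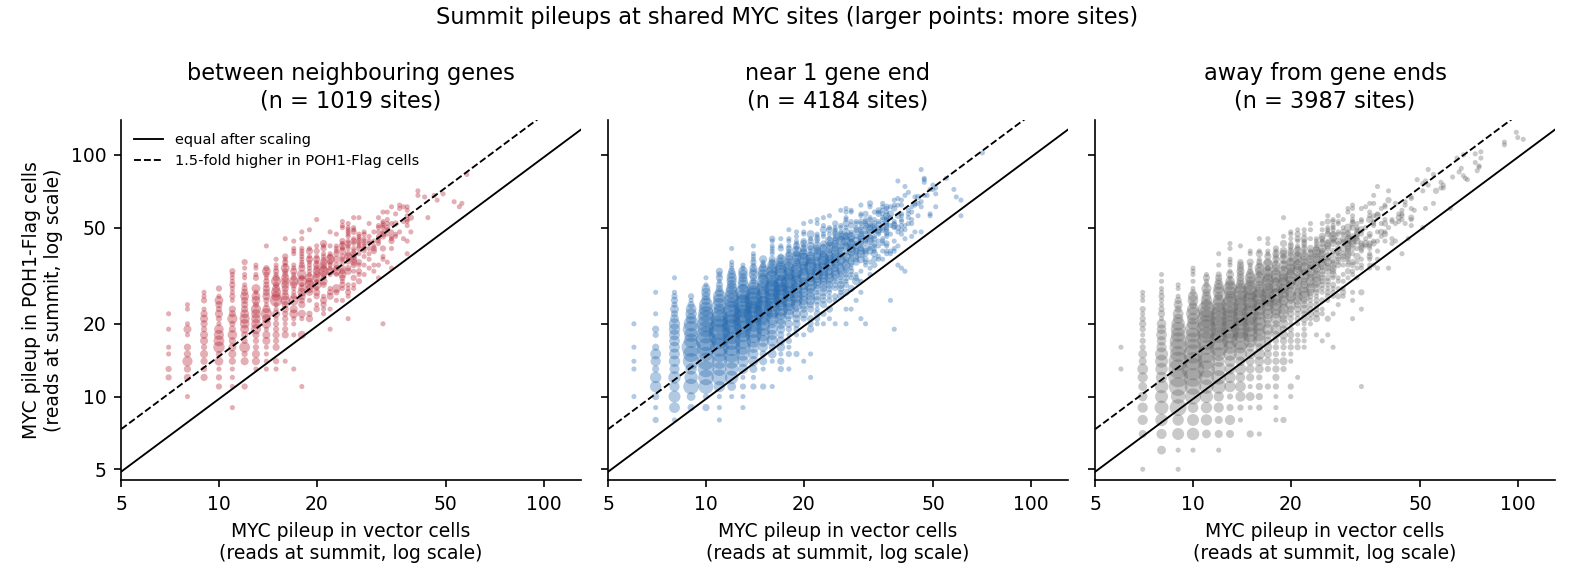
MYC pileup at the summit in POH1-Flag cells (reads, log scale) against vector cells (reads, log scale) for the 1019 sites between neighbouring genes, the 4184 near 1 gene end and the 3987 away from gene ends, larger points standing for more sites. The solid line marks equal scaled pileups and the dashed line a ratio of 1.5. In all 3 panels most sites lie above the solid line, 98.7% of the sites in the left panel.

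The strongest sites, by the authors' −log10 q in the POH1-Flag MYC list, served genes of unrelated function. Those deposited values ranged from 2.29 to 41.8 over the 1019 sites, with a median of 13.3. The first was the site of Trmt10a, a tRNA methyltransferase, and Mttp, the transfer protein that loads lipid onto lipoproteins (chr3:138143296-138144099). It had 68 reads in POH1-Flag cells and 46 in vector cells, a ratio of 1.51 (95% counting interval 1.03 to 2.25), with starts 30 bp apart and the summit 144 bp inside Trmt10a.
The site of Cdca2, a mitotic regulator of protein phosphatase 1, and Kctd9 (chr14:67715237-67716465) had 71 reads in POH1-Flag cells and 41 in vector cells (ratio 1.77, 1.19 to 2.67). Between Uqcrq, a subunit of respiratory complex III, and Gdf9, an oocyte growth factor (chr11:53430645-53431371), the pileup was 55 reads in POH1-Flag cells and 26 in vector cells (ratio 2.16, 1.33 to 3.60). Of the 8 strongest sites this last had the highest ratio.
The other 5 pairs were Anxa5, a phosphatidylserine-binding annexin, with 1810062G17Rik, Acbd7 with Rpp38, a subunit of ribonuclease P, Spata5 with Nudt6, Hexdc with Ogfod3, and Eif4a1, the translation initiation helicase, with Senp3, a nucleolar SUMO protease. They had 58 to 68 reads in POH1-Flag cells and 32 to 43 in vector cells, and ratios of 1.59 to 1.85. All 8 counting intervals lay above 1, against 27.8% of the 1019 sites, but the 8 were picked by their strength in POH1-Flag cells. With pileups scaled by depth 5 of the 8 did, without those of Trmt10a and Mttp, Acbd7 and Rpp38, and Hexdc and Ogfod3.

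Most textbook bidirectional pairs were among the sites, with ratios from 1.09 to 1.72. Of 15 such pairs, which were chosen with earlier results known, 12 had a site, beside 61.1% of all divergent pairs; the pairs Tap1 and Psmb9, Col4a1 and Col4a2, and Tcp1 and Mrpl18 had none. The strongest joined Ppat and Paics, enzymes of purine synthesis (chr5:76950992-76951897, genes overlapping by 276 bp), and Hspe1 and Hspd1, the mitochondrial chaperonins (chr1:55087159-55088512, overlapping by 95 bp). Ppat and Paics had 52 reads in POH1-Flag cells and 35 in vector cells, a ratio of 1.52 (0.972 to 2.40). Hspe1 and Hspd1 had 53 reads in POH1-Flag cells and 38 in vector cells, a ratio of 1.43 (0.923 to 2.22). Both intervals hold 1, so at this depth neither pair shows a difference beyond counting error.
Ranbp1, a cofactor of the Ran GTPase, and Trmt2a, a tRNA methyltransferase (chr16:18248148-18249205), had 42 reads in POH1-Flag cells and 25 in vector cells (ratio 1.72, 1.02 to 2.94). This was the single textbook pair whose interval lay above 1, and with pileups scaled by depth it held 1 (0.944 to 2.71).

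Several textbook pairs join genes of DNA repair and replication, and the intervals of those given here held 1. Prkdc, the DNA-dependent protein kinase, and Mcm4, a subunit of the replicative helicase, had 36 reads in POH1-Flag cells and 26 in vector cells (ratio 1.42, 0.832 to 2.44). At Atm, the kinase of the double-strand break response, and Npat, the activator of histone genes, the pileup was 30 reads in POH1-Flag cells and 19 in vector cells (ratio 1.62, 0.880 to 3.04).
Atm and Npat start 61 bp apart by their gene spans, and the summit falls 3 bp inside Atm; the printed Atm window follows a transcript that starts farther in, 154 bp from the summit. Nbr1, an autophagy receptor, and Brca1, a protein of homologous recombination, had 25 reads in POH1-Flag cells and 15 in vector cells (ratio 1.71), with the summit 628 bp inside Nbr1, away from the gap of 152 bp. Sars2, the mitochondrial seryl-tRNA synthetase, and Mrps12, a mitochondrial ribosomal protein, had the same counts, 25 and 15.
The weakest textbook pairs had few reads. Cox4i1, a subunit of cytochrome oxidase, and Emc8 had 20 reads in POH1-Flag cells and 14 in vector cells, Hars and Hars2, the histidyl-tRNA synthetases, 14 and 10, and Surf1, an assembly factor of cytochrome oxidase, and Surf2 17 and 14. At Surf1 and Surf2 the 2 summits lay 316 bp apart. Gart, a purine synthesis enzyme, and Son, a splicing protein, start 852 bp apart and had 16 reads in POH1-Flag cells and 15 in vector cells (ratio 1.09, 0.505 to 2.37). At these 4 pairs a ratio near the median of 1.66 and a ratio of 1 both lie inside the interval.

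The genes of the sites were spread unevenly over the functional lists, which were chosen with earlier results of these data known. Several lists were drawn by symbol pattern and take in a few genes of other function, such as the kinase gene Rps6kb1 among the cytosolic ribosome genes and Zbtb8os among the zinc finger genes. Of all 21631 protein-coding genes, 1993 (9.21%) were at such a site. The share was 43 of 75 histone genes (57.3%), 13 of 38 aminoacyl-tRNA synthetases (34.2%), 27 of 79 ribosome biogenesis genes (34.2%), 12 of 36 chaperones (33.3%) and 25 of 78 genes of the mitochondrial ribosome (32.1%). It was 16 of 52 DNA replication genes (30.8%), 21 of 79 DNA repair genes (26.6%), 25 of 96 genes of the respiratory chain and ATP synthase (26.0%), 17 of 74 splicing genes (23.0%) and 7 of 31 genes of nucleotide and one-carbon synthesis (22.6%).
Proteasome genes, at 9 of 51 (17.6%), and genes of the cytosolic ribosome, at 15 of 100 (15%), were nearer to the background. A further 46 cytosolic ribosome genes had a shared site near 1 gene end instead, beside 4028 of all 21631 protein-coding genes. Every other list but the olfactory receptors had such genes too. Deubiquitinases of the USP family, at 5 of 55 (9.09%), and zinc finger genes, at 40 of 465 (8.60%), stood at the background. Olfactory receptor genes, which serve the sensory neurons of the nose, were at a site in 0 of 1110 cases, but only 19 of them have another gene's end within 2 kb.

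Having a close neighbour is what allows a gene to be at such a site, and lists differ in it. Among the 7048 genes with another gene's end within 2 kb, 1993 (28.3%) were at a site. On that base the share was 43 of 54 for histones (79.6%), 13 of 20 for aminoacyl-tRNA synthetases (65.0%), 7 of 12 for nucleotide synthesis (58.3%), 16 of 29 for DNA replication (55.2%) and 27 of 50 for ribosome biogenesis (54%). It was 25 of 50 for the mitochondrial ribosome and 12 of 24 for chaperones (50% each), 17 of 38 for splicing (44.7%), 25 of 59 for the respiratory chain (42.4%) and 21 of 53 for DNA repair (39.6%). Zinc finger genes had 40 of 109 (36.7%), the proteasome 9 of 27 (33.3%), the cytosolic ribosome 15 of 47 (31.9%) and the USP family 5 of 24 (20.8%).

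Within the lists the pileup was higher in POH1-Flag cells at nearly every site, as at 94.6% of all shared sites, and the medians of the ratio differed. Sites of the proteasome list, which includes assembly and interacting factors, had a median ratio of 1.97, with all 9 above 1 and 7 at or above 1.5, against 68.4% of the 1019 sites. One of them holds Psma4, a subunit of the proteasome core, with AY074887 and Hykk (chr9:54950396-54951212); it had 28 reads in POH1-Flag cells and 12 in vector cells (ratio 2.39, 1.18 to 5.15). The 24 sites of the mitochondrial ribosome had a median of 1.90, with 19 at or above 1.5, again beside 68.4%. The largest by −log10 q of the deposited list lies between Mrpl47 and Ndufb5, a subunit of respiratory complex I, whose starts are 302 bp apart (chr3:32736493-32737275). It had 48 reads in POH1-Flag cells and 18 in vector cells, a ratio of 2.73 (1.56 to 4.98), and the summit falls about midway, 149 bp before Mrpl47 and 153 bp before Ndufb5.
Median ratios were 1.77 for zinc finger genes, 1.74 for splicing, 1.71 for DNA repair, 1.71 for ribosome biogenesis, 1.68 for aminoacyl-tRNA synthetases, 1.67 for the respiratory chain and 1.66 for the cytosolic ribosome, against 1.66 over all 1019 sites. DNA replication genes had 1.56, nucleotide synthesis 1.49 and chaperones 1.44. The lists hold 5 to 36 sites each and share some, and these medians were not tested.

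At 46 sites 2 genes belonged to the lists. Xpc, the damage sensor of nucleotide excision repair, and Lsm3, a splicing protein, had 41 reads in POH1-Flag cells and 19 in vector cells (ratio 2.21, 1.25 to 4.03). Zkscan14 and Zkscan5, zinc finger proteins, had 47 reads in POH1-Flag cells and 25 in vector cells (ratio 1.92, 1.16 to 3.26). Zbtb6 and Zbtb26, BTB-zinc finger proteins in tandem, had 33 reads in POH1-Flag cells and 21 in vector cells (ratio 1.61, 0.903 to 2.92).

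Histone sites had the lowest median ratio of the lists. The 27 sites counted for the list had a median ratio of 1.28, against 1.66 over all sites, with 26 above 1, and 7 at or above 1.5 beside 68.4% of all sites. Replication-dependent histone genes, which supply new chromatin during DNA synthesis, lie in clusters with many close neighbours. H3c14 and H2ac18 (chr3:96245275-96247285) had 64 reads in POH1-Flag cells and 53 in vector cells, a ratio of 1.24 (0.845 to 1.81). H3c15 and H2ac19 (chr3:96238519-96240462) had 63 reads in POH1-Flag cells and 56 in vector cells, a ratio of 1.15 (0.790 to 1.68). H2ac6 and H2bc4 had 34 reads in both (ratio 1.02), whereas H2ac12 and H2bc12 had 46 reads in POH1-Flag cells and 27 in vector cells (ratio 1.74, 1.06 to 2.92).
The lowest histone site, H2ac21 and H2ac20 (chr3:96219846-96220091), had 20 reads in POH1-Flag cells and 32 in vector cells, a ratio of 0.640 (0.347 to 1.15). There the summits of the cell lines lay 828 bp apart and the peaks were 246 bp wide in POH1-Flag cells and 1264 bp in vector cells, so the pileups are of different positions. Histone genes have near-identical copies, among them the neighbouring H3c14, H3c15, H2ac18 and H2ac19, and how reads that fit several copies were placed is not given in the sources used here. Their pileups are uncertain for this reason.

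The highest ratios rested on low vector pileups. Among sites with at least 20 reads in the higher library, Ost4, a subunit of the oligosaccharyltransferase, and Agbl5, a tubulin deglutamylase, had 22 reads in POH1-Flag cells and 7 in vector cells (ratio 3.22, 1.33 to 8.91). The 2 summits of this site lay 247 bp apart. Tbccd1 and Dnajb11, a cochaperone of the endoplasmic reticulum, had 42 reads in POH1-Flag cells and 14 in vector cells (ratio 3.07, 1.64 to 6.09). Catsperd, of the sperm calcium channel, and Lonp1, the mitochondrial matrix protease, start 8 bp apart and had 36 and 12 reads in the same order, as had Tnfaip1 and Ift20, a protein of intraflagellar transport. Dock4 and Zfp277 had 33 reads in POH1-Flag cells and 11 in vector cells. All 5 intervals lay above 1, against 27.8% of the 1019 sites, but the 5 were picked by their high ratios. All 5 intervals also hold the median of 1.66, so none is shown to exceed the typical site.

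At 13 sites the scaled pileup was lower in POH1-Flag cells, against 5.39% of all shared sites. The lowest lies between Faap100, of the Fanconi anaemia core complex, and Nploc4, a cofactor of the p97 segregase, with 11 reads in POH1-Flag cells and 18 in vector cells (ratio 0.625, 0.267 to 1.40). Btf3l4 and Txndc12 had 21 reads in POH1-Flag cells and 25 in vector cells (ratio 0.860). All 13 intervals held 1. Just above a ratio of 1 lay Mboat7, an acyltransferase of phosphatidylinositol, and Tsen34, of the tRNA splicing endonuclease, with 31 reads in each line (ratio 1.02).

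Sites near 3 genes included Eef1akmt4, Eef1akmt4-ece2 and Alg3, a mannosyltransferase of N-glycan assembly, with 57 reads in POH1-Flag cells and 35 in vector cells (ratio 1.67, 1.08 to 2.62). The first 2 have the same promoter window in RefSeq and share a start. Topors, a ubiquitin and SUMO ligase, Smim27 and Ndufb6 had 34 reads in POH1-Flag cells and 18 in vector cells (ratio 1.93). Rspry1, Psme3ip1 and LOC115486880 had 39 and 23 (ratio 1.74), and Nup62, a nuclear pore protein, Il4i1b and Atf5, a stress-response transcription factor, had 42 and 28 (ratio 1.53, 0.929 to 2.57). Of the 42 sites that the naming rule picked, 22 had an interval above 1 and 20 held 1, and with pileups scaled by depth 14 lay above 1. Beside the 4 pairs already given, the intervals that then held 1 were those of the sites of Eef1akmt4, Topors, Rspry1 and H2ac12. The rule takes the strongest sites and the highest ratios, so these counts say nothing of the sites as a whole.

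**Figure D4:**
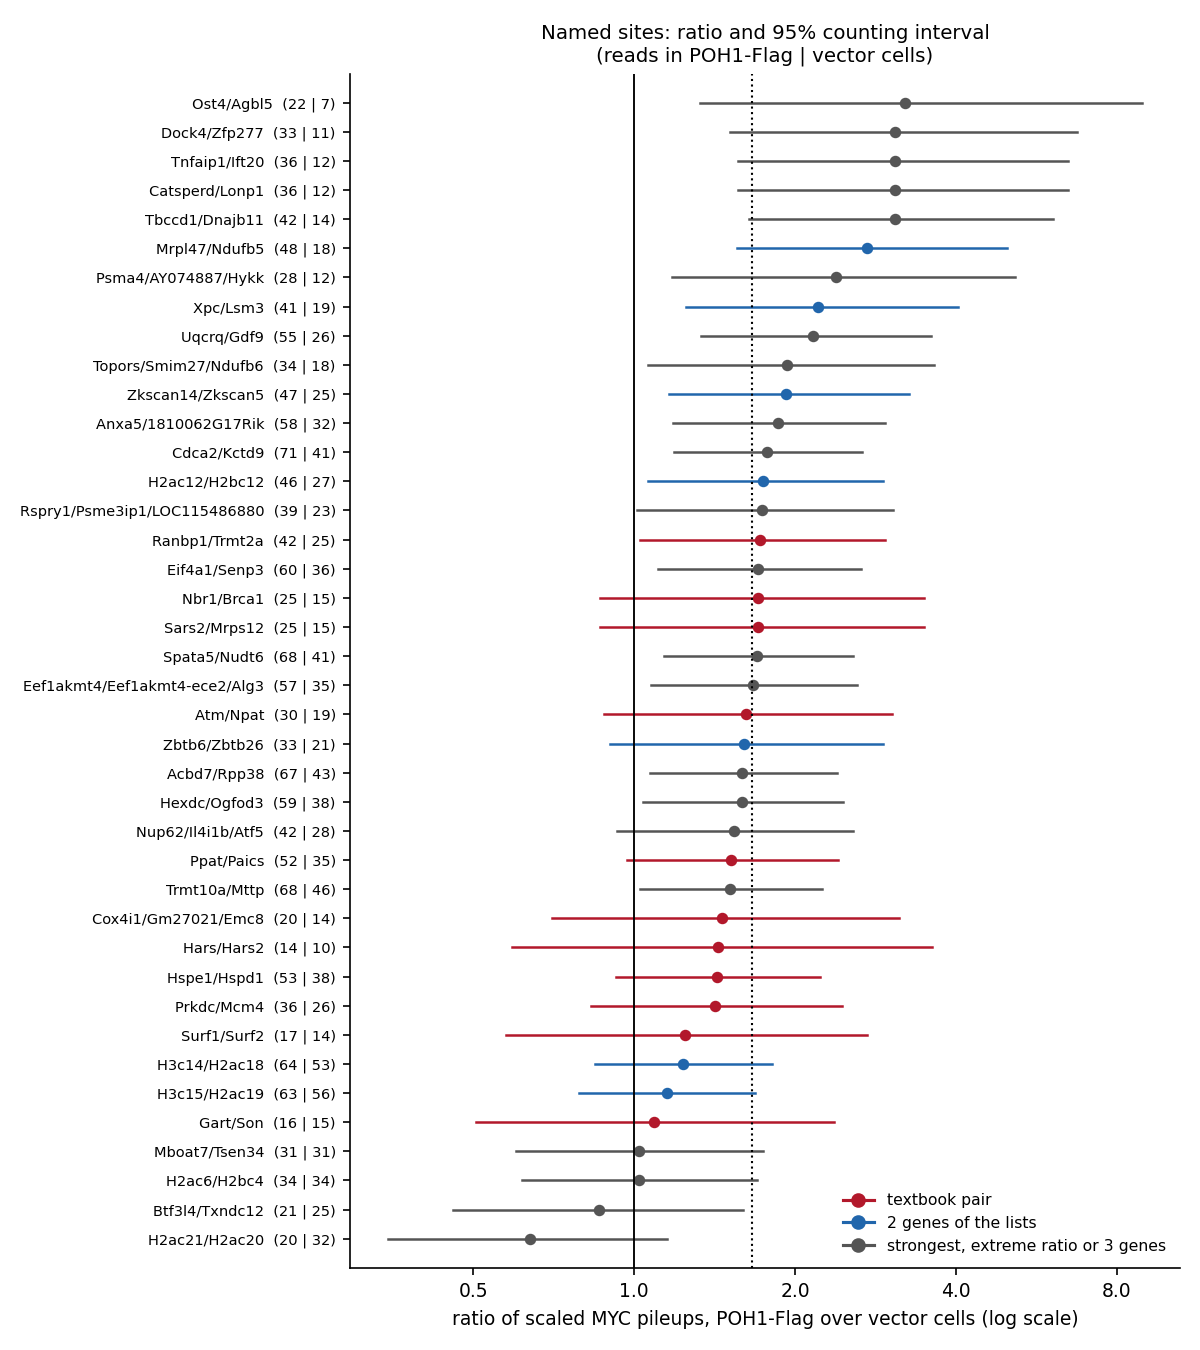
Ratio of scaled MYC pileups, POH1-Flag over vector cells (log scale), at 40 named sites, with exact 95% counting intervals (lines) and the reads in POH1-Flag and vector cells beside each name. The solid line marks a ratio of 1 and the dotted line the median of 1.66 over all 1019 sites; textbook pairs range from 1.09 to 1.72.

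The few sites just outside the rule's limit of 1 kb had more reads in POH1-Flag cells than those given just inside it. Just inside it were Enoph1 and Hnrnpdl, with the second gene 996 bp from the summit and 26 reads in POH1-Flag cells against 15 in vector cells, and Dnaja1 and Aptx at 994 bp with 22 against 16. Just outside were Prrg2 and Prr12 at 1004 bp with 40 reads in POH1-Flag cells against 26 in vector cells, Phykpl and Col23a1 at 1005 bp with 28 against 14, and Tmem237 and Mpp4 at 1011 bp with 33 against 13.

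The promoters at divergent sites were CpG-rich and held the ETS word more often than other MYC-bound promoters. RefSeq windows of 300 bases were matched for 1198 genes at divergent sites, 3283 starts at shared sites near 1 gene, 573 genes of divergent pairs without a site and 17274 genes in all. Divergent pairs without a site are not all free of MYC peaks. Of 1005 divergent pairs, 614 had a site, but 789 had a MYC peak of POH1-Flag cells near both genes. CCGGAAG, read on both strands, was in 28.1% of windows at divergent sites (Wilson 95% interval 25.7 to 30.7), in 19.6% at sites near 1 gene (18.2 to 20.9), in 22.0% at divergent pairs without a site and in 12.1% of all. Windows of a divergent pair can overlap, so a word can count for both genes and the intervals at divergent sites are too narrow. By site, 227 of the 605 (37.5%) had the ETS word.
The E-box CACGTG was about as frequent at divergent sites as at other MYC-bound promoters. It was in 11.5% of windows at divergent sites (9.83 to 13.5), 12.8% at sites near 1 gene, 9.77% at divergent pairs without a site and 8.01% of all. The variant CACGCG was in 25.1%, 22.3%, 16.2% and 12.4% of the same sets. GGGCGG, the GC box of Sp1-type factors, was in 67.8%, 74.2%, 56.2% and 46.9%, and CCAAT in 41.2%, 42.6%, 42.1% and 39.6%.
TATAAA was rare at divergent sites, in 4.92% of windows, against 5.94% at sites near 1 gene, 6.46% at divergent pairs without a site and 13.4% of all. GATGGCG, the core of the YY1 motif, was in 8.60% at divergent sites, 7.31% near 1 gene, 9.60% without a site and 4.49% of all. GCATGCG, of NRF1, was in 7.93%, 8.35%, 5.41% and 4.54%, and TGACGTC, of CREB-type factors, in 7.1%, 7.01%, 5.06% and 4.03% of the same sets, so divergent sites were close to other MYC-bound starts in all 3. Median GC content was 63.0% at divergent sites and at sites near 1 gene, 60.3% at divergent pairs without a site and 56.3% over all promoters. The ratio of observed to expected CpG had medians of 0.861, 0.825, 0.75 and 0.586 in that order. GC content thus moves with most of these words, and its part in their shares was not tested.

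Sites with and without a word differed little in pileup. The 105 divergent sites with an E-box (17.4% of 605) had a median of 30 reads in POH1-Flag cells and 19 in vector cells, against 27 and 16 at the sites without one, with ratios of 1.67 and 1.66. With the ETS word the medians were 26 reads in POH1-Flag cells and 15 in vector cells, and without it 29 and 17. The E-box lay a median of 167 bp from the summit, the ETS word 129 bp, the GC box 91.5 bp and the TATA word 298 bp. The E-box was thus not at the summit in most of these sites, and 500 of the 605 had none in the windows searched. The search covers the windows and not the whole peak.

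**Figure D5:**
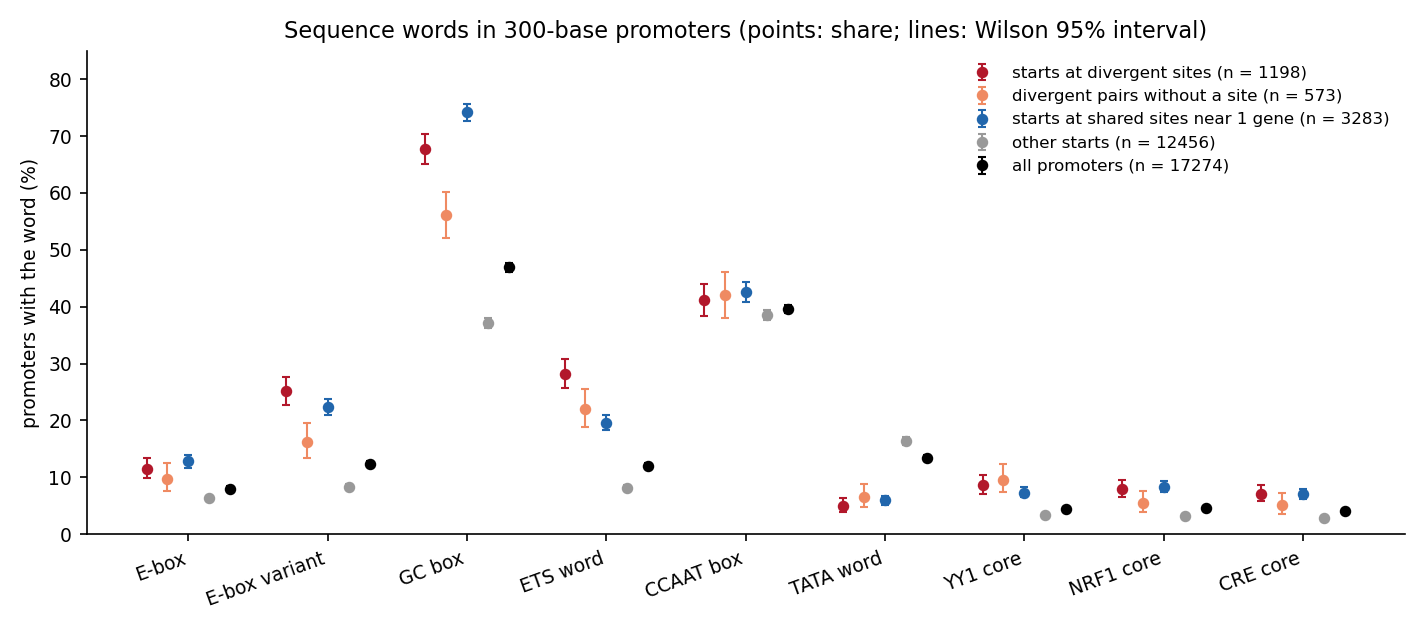
Share of 300-base promoter windows that hold each of 9 sequence words on either strand (%, points) with Wilson 95% intervals (lines), for divergent sites, divergent pairs without a site, starts at shared sites near 1 gene, other starts and all promoters. The ETS word stands at 28.1% for divergent sites against 19.6% near 1 gene, while the E-box stands at 11.5% against 12.8%. Windows of a divergent pair can overlap, so the intervals of both divergent sets are too narrow.

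Sites were found on all 20 chromosomes searched, from 104 on chromosome 7 and 93 on chromosome 11 to 14 on chromosome 18 and 10 on X. At 25 sites the POH1-Flag peak overlapped more than 1 vector peak, of which the one with the highest pileup was used, and 71 genes were at 2 or more sites. Of the 1993 genes, 85 had a predicted-gene symbol, and 4 sites had predicted genes only.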

How the data were processed

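CUT&Tag libraries were profiled in Pan02 cells: Flag in POH1-Flag cells, MYC in POH1-Flag cells and MYC in vector cells, 1 library each, grouped by the sample titles. The submitters' processing notes list MACS2 2.2.7.1, BWA 0.7.17-r1188, Trim Galore 0.6.6 and FastQC 0.11.9 on the build GRCm38, without order or settings. Whether a control library or blacklist was used, and how duplicates were handled, is not given in the sources used here. Peak lists were deposited per library, in narrowPeak layout without a header. The authors' fold enrichment is a linear ratio of summit over background, and their p-value and q-value are deposited as −log10 values; the score column as deposited restates the −log10 q on a scale of 10. Peak positions in the deposited lists are in bp. Smallest deposited −log10 q values were 1.36 for Flag and 1.30 in each MYC list.

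The whole read pileup at each summit and its background were solved from the fold, taken as (pileup + 1)/(background + 1), and the Poisson tail probability; 100% of peaks in each list gave whole reads within 0.01 of a read step. Ratios of POH1-Flag over vector pileups were multiplied by 1.02, the lowest background of the vector MYC list over that of the POH1-Flag MYC list. For scaling by depth no read totals were used. Each lowest background was divided by the smallest peak width of its list, 202 bp in POH1-Flag cells and 219 bp in vector cells. Ratios were then multiplied by 0.944 instead. Their intervals are exact conditional Poisson 95% intervals and shares have Wilson intervals; both cover counting error only and are too narrow if PCR duplicates were kept. Gene spans, strands and promoter windows are RefSeq's (GRCm38.p6); the gene span and the promoter's transcript can start at different bases. Words were searched on both strands, once per window, and may overlap. Of the vector peaks a site overlapped, the highest was used.

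The sites, lists and textbook pairs were chosen with earlier results of these data known. Sites were named by rule: the 8 with the largest deposited −log10 q, the 5 highest and 5 lowest ratios with at least 20 reads in the higher library, up to 5 with 3 genes, textbook pairs, and the 12 largest with 2 listed genes. A few others are named as counts require: the 5 convergent sites, the site with the lowest ratio of all, the sites at the 1 kb limit and 1 list member each by its values. A few sites that these rules pick are not reported here. With 1 library per group, no test between the cell lines was made. The solver and intervals were tested on simulated data. Python 3.11.15, numpy 2.4.6, pandas 2.3.3, scipy 1.17.1 and matplotlib 3.10.9 were used.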

Additional observations from a re-analysis of the deposited data

How the results depend on the processing

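The share of sites at least 1.5-fold higher in POH1-Flag cells depended most on the scaling. It was 68.4% as reported, 65.5% with unscaled reads and 53.4% with pileups scaled by the depth estimated from the lists. With a −log10 q of at least 5 in both lists it was 63.3%. Over all shared sites this share was worked out only for the reported setting, at 58.4%. The median log2 ratio, 0.73 (95% interval of the median 0.71 to 0.76), became 0.70, 0.62 and 0.68 under the same alternatives. Other gene distances, a stricter overlap (0.5 of both peaks), keeping sites with a Flag peak and mutual partners moved it to between 0.71 and 0.74. Leaving out 27 sites at histone genes, an alternative chosen after seeing the data, gave 0.74 and 69.6%. The number of sites was 627 with gene starts only and between 714 and 1325 under the other alternatives, against 1019. Divergent pairs made up 77.4% of sites of known orientation, 84.7% with gene ends within 500 bp and 66.3% within 2 kb. A window of 100 bases before to 50 after the start lies inside the wider one, so no word can be more frequent in it. At divergent sites it held the E-box in 7.1% and the ETS word in 20.9% of cases. The ETS word was then in 14.6% of windows at sites near 1 gene and in 19% at divergent pairs without a site. Divergent sites thus stayed above sites near 1 gene in the ETS word but lay close to divergent pairs without a site. Of the 42 named sites, 22 had a counting interval above 1, 21 with unscaled reads and 14 with pileups scaled by depth, an alternative added for these sites after seeing the data. No paired analysis was possible because each group has 1 library, and for the same reason no replicate could be left out. Depth limits single sites: with medians of 27 reads in POH1-Flag cells and 16 in vector cells, a ratio of 1.66 often has an interval that holds 1.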
